A study of Mus musculus with 6 samples.

Results

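The genes described here are the interferon-induced and antigen presentation genes of mouse endothelium, 76 of the 11138 genes that the arrays measured under a single symbol. They were chosen by symbol, with no measured value used. Taken were Ifi followed by a digit, Ifit (which takes in the Ifitm genes), Oas, Gbp followed by a digit, Isg, Mx1, Mx2 and Usp18. The interferon regulatory factors Irf1 to Irf9 and Stat followed by a digit were also taken. So were every symbol that starts with H2 and a hyphen, Tap1, Tap2, B2m and Cd74. By role they comprise 23 interferon effectors, 3 Ifitm genes, 14 transcription factors, 26 genes of class I antigen presentation and 8 of class II, with H2-Ke6, which carries the H2 name by its position, and H2-Pa outside these classes.

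The RNA came from endothelial cells, the lining of blood vessels, isolated by sorting from smoke-treated and control mice, with total RNA of both compared on 6 arrays of 2 colours. There were 3 arrays of 1-week tobacco smoke over control, among them a dye reversal, that is, a hybridization with the dyes exchanged. For 6-week smoke there were 1 array over 1-week control, a dye reversal of it, and 1 array over 6-week control. The pair of 6-week arrays against 1-week control was averaged as 1 technical replicate, which left 3 replicates at 1 week and 2 at 6 weeks. If the 1-week dye reversal holds the same RNA as another 1-week array, which the labels leave unsettled, there are 2 replicates at 1 week. The strain, genotype, sex, age and number of the mice, the tissue, the sort markers and the smoke dose are not given in the sources used here. Nor do the labels say whether the arrays came from separate animals, so the p-values measure only the spread between arrays, which may be technical, and arrays against 1-week control may share control RNA.

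Each value is a log2 ratio. A positive value likely means more RNA after smoke, because the labels put the smoke sample in channel 1 on all 6 arrays and name smoke first. Signs are those of the deposited values, dye reversals included. Fewer cells of a kind and less RNA per cell cannot be told apart in such ratios. The values carry no signal intensities, so expression levels and signal over background were not assessed, and precision depends on how few arrays there are. Values on the arrays are listed throughout in 1 order: the 1-week dye reversal, 1-week replicates 2 and 3, the 6-week array against 1-week control, its dye reversal, and the 6-week array against 6-week control.

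Interferons are signalling proteins of the antiviral response. Type I and type II interferons act through cell surface receptors and JAK kinases on STAT proteins, which with Irf9 or alone bind the interferon-stimulated response element (ISRE) or the STAT site in promoters and switch on effector genes that restrict viruses and intracellular bacteria. Interferon, type II above all, also raises the major histocompatibility complex, called H2 in the mouse: class I molecules pair with B2m and show peptides brought in by Tap1 and Tap2 to cytotoxic T cells, and class II molecules, guided by Cd74, show peptides to helper T cells. Endothelial cells express class I, and class II is inducible in them.

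The members' promoters share sequence that the choice by symbol did not use. RefSeq promoter windows of build GRCm38.p6, each from 250 bases before a transcript start to 50 after it, matched 54 of the 76 members with 68 windows. The ISRE core, searched on both strands as GAAA, any 2 bases and GAAA again, was found in 17 of these 68 windows (25%), against 3.44% of the 32851 windows of the table. By class it lay in 9 of 21 windows of interferon effectors (42.9%), 2 of 3 of Ifitm genes, 3 of 20 of transcription factors, 3 of 17 of class I genes and 0 of 6 of class II genes. The STAT site core, TTC, any 3 bases and GAA on either strand, was in 9 member windows (13.2%), against 8.3% of all windows. The CCAAT box, searched as CCAAT on both strands, was in 15 of 17 class I windows and 5 of 6 class II windows, against 37.4% of all windows. A match is a run of letters and no measured binding site. Neighbouring genes of 1 family have related promoters, so windows are not independent of each other.

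Windows of 6 members are shown because the results below turn on them or because they show a class: Isg15 with 3 overlapping ISRE cores, Gbp3 with 2 that overlap, Ifitm3 with 2 ISRE cores and a STAT core that overlaps the second, Irf1 with a STAT core, B2m with 1 ISRE core, and H2-Aa with a CCAAT box. Each is written 5′ to 3′ on the gene's strand, and capitals mark ISRE and STAT cores or, for H2-Aa, the CCAAT box; B2m's own CCAAT box and that of Irf1 are left in lower case.

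Isg15 (chr4:156200769-156201068, minus strand): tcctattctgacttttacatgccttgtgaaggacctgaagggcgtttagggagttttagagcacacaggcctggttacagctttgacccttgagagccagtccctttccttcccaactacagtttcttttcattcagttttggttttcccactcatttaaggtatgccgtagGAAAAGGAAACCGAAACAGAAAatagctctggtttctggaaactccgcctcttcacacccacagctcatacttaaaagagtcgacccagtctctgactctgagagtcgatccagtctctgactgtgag

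Gbp3 (chr3:142559794-142560093, plus strand): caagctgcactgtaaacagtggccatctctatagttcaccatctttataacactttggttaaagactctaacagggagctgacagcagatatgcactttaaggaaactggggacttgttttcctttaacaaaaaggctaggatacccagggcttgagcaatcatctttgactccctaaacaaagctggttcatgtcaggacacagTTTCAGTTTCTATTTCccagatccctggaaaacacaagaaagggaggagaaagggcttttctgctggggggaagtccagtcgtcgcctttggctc

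Ifitm3 (chr7:141010695-141010994, minus strand): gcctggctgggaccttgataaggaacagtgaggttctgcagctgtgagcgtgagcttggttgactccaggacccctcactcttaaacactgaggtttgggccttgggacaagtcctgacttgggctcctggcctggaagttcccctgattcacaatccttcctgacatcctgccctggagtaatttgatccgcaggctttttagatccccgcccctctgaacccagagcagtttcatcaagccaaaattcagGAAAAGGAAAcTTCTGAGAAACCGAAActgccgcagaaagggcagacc

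Irf1 (chr11:53769764-53770063, plus strand): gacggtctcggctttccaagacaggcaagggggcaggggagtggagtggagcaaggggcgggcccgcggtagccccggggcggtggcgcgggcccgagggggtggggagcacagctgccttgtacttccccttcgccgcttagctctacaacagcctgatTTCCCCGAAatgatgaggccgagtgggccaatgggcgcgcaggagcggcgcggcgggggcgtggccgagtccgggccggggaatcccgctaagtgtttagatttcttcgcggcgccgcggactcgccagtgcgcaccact

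B2m (chr2:122147437-122147736, plus strand): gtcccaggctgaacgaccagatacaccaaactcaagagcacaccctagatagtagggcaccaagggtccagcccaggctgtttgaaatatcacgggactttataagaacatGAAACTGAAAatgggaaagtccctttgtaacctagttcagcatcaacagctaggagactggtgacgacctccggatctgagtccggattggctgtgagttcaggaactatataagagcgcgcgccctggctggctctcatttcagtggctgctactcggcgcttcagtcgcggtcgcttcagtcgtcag

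H2-Aa (chr17:34287774-34288073, minus strand): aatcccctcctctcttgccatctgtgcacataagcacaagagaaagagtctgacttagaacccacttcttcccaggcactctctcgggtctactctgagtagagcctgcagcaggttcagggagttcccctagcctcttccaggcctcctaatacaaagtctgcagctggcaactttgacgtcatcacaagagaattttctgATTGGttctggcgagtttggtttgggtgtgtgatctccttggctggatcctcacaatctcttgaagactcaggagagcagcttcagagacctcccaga

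**Figure D1:**
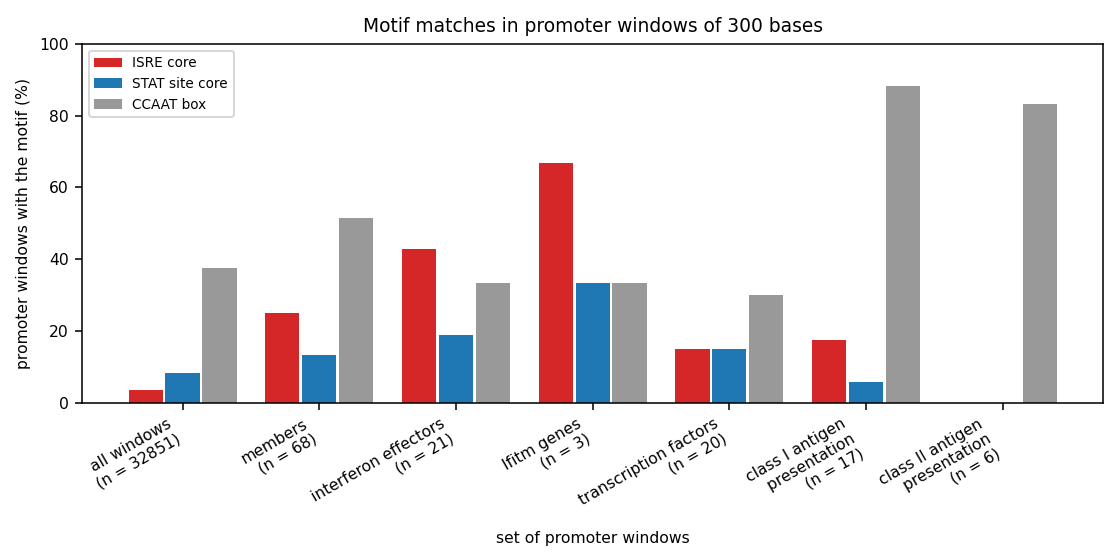
Share of promoter windows of 300 bases, in percent, that hold the ISRE core, the STAT site core or the CCAAT box, for all 32851 windows of the RefSeq table, the 68 windows of members and the windows of each class; n is the number of windows. The ISRE bar is 3.44% for all windows and 42.9% for interferon effectors, and the CCAAT bars are highest for class I and class II genes.

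At 1 week the median log2 ratio of the interferon and antigen presentation genes was -0.06, against -0.01 over all named genes, with 32 members above 0 and 44 below. At 6 weeks the median was -0.03, against -0.01, again with 32 members above 0 and 44 below. At 1 week 88.2% of the members lay within 0.5 of 0, beside 87.1% of all named genes, and at 6 weeks 93.4% beside 90.2%. The median standard error (SE) of a member was 0.19 at 1 week and 0.24 at 6 weeks.

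In a linear model fitted with limma, which moderates each gene's spread by that of all features, and with Benjamini-Hochberg adjustment over all 19242 features, 0 of the 76 members passed an adjusted p of 0.05 at 1 week, at 6 weeks, in the difference between the times or in the mean of both times. The background was as empty: 0% of all tests were called in each of the 4 comparisons, where the smallest adjusted p values were 0.178, 0.556, 0.951 and 0.199. At an unadjusted p under 0.05, limma gave 3 members above 0 and 2 below at 1 week, where 3.53% of all tests were called above and 3.12% below. At 6 weeks 1 member was above and 2 were below, beside 2.18% and 1.94% of all tests. In the mean of both times 2 were above and 2 below, beside 3.2% and 3.12%. These shares of members lie near those of all tests. Leaving out 1 array changed these counts: at 1 week 5 members became 2 to 6, with 2 without the dye reversal. At 6 weeks 3 became 6 without the array against 1-week control and 1 without its dye reversal or without the array against 6-week control. In the mean 4 became 1 without the 1-week dye reversal or without the array against 6-week control, and 3 to 6 without any other.

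At 1 week 11 members (14.5%) were above 0 on all 3 arrays and 21 (27.6%) below 0 on all 3, beside 15.4% and 15.6% of all named genes. At 6 weeks 7 (9.21%) were above 0 and 14 (18.4%) below 0 on all 3 arrays, beside 11.7% and 13%. The share below 0 was thus higher among members than among all named genes, more so at 1 week, and this difference was not tested. It leaned on the dye reversals, whose sign is the least certain. In the order above, 48, 38, 42, 34, 51 and 44 members were below 0 on the single arrays, most on the 2 dye reversals. Of the 11138 named genes, 5334 to 5846 were below 0 on an array. With both dye reversals turned, the 1-week median of the members was 0.01. Related genes may share signal and are not independent of each other. On all 6 arrays 4 members were positive, Gbp3, Ifi47, Irf1 and H2-T9, and 5 were negative, Ifi27l2a, Ifitm3, Irf7, H2-Q1 and H2-T3 (5.26% and 6.58%), beside 3.24% and 3.62% of all named genes.

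**Figure D2:**
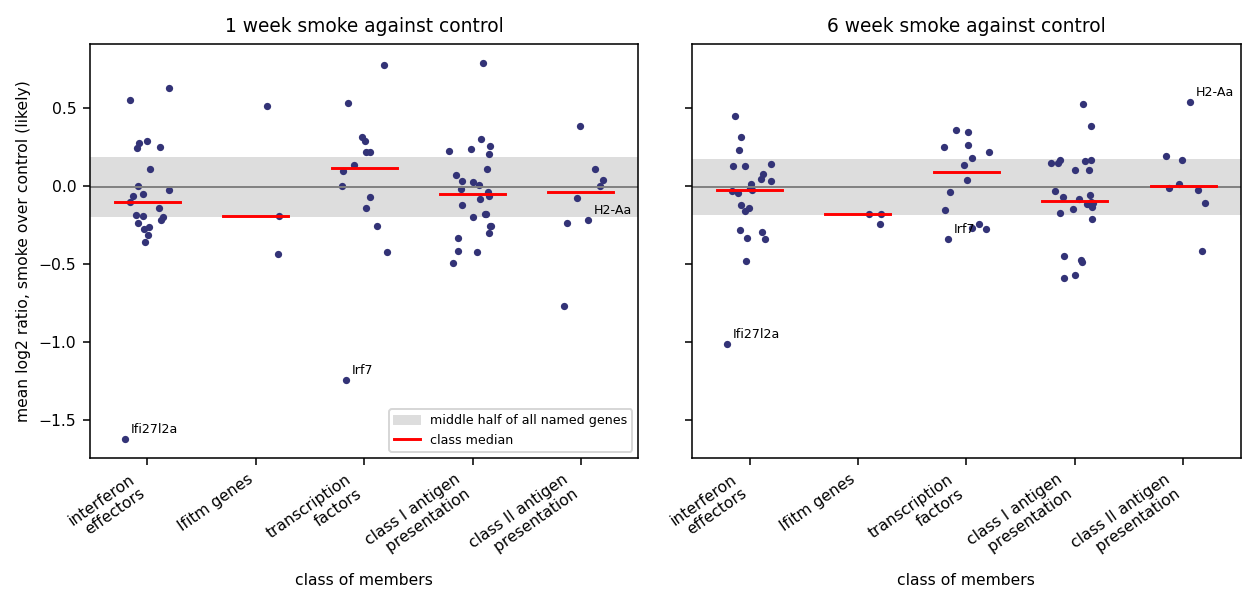
Mean log2 ratio of each member by class, smoke over control (likely direction), at 1 week (left, 3 replicates) and 6 weeks (right, 2 replicates). Each point is 1 gene, red lines are class medians and the grey band spans the lower to the upper quartile of all 11138 named genes; Ifi27l2a is the lowest point in both panels.

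1 interferon effector stood apart. Ifi27l2a, which encodes a small hydrophobic protein of the Ifi27 family induced by type I interferon, had log2 ratios of -1.50, -1.98 and -1.39 at 1 week and -1.18, -1.59 and -0.63 at 6 weeks. All 6 arrays were below 0, the dye reversals lay among the others, and the array against 6-week control was the nearest to 0. Its spots differed by at most 0.21 on any array. The mean was -1.62 ± 0.22 (SE, n = 3 replicates) at 1 week, a 3.08-fold lower ratio, and -1.01 ± 0.27 (SE, n = 2 replicates) at 6 weeks, a 2.01-fold lower ratio.

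The call on Ifi27l2a depended on which features were tested with it. Over all 19242 tests limma's adjusted p was 0.387 at 1 week, 1.0 at 6 weeks and 0.39 in the mean of both times, and Ifi27l2a was not called. A narrower test kept the 5786 genes whose repeat spots of the same probe agreed to within 1 log2 unit across all arrays. It held 50 of the members, and gaps between different probes of a gene were not counted. In it Ifi27l2a passed at 1 week (limma adjusted p 0.00889) and in the mean of both times (-1.31 ± 0.15, limma adjusted p 0.00701) and was the only member to pass; in that set 0.778% of genes were called below 0 and 0.985% above at 1 week, and 0.76% below and 1.23% above in the mean. At 6 weeks alone limma's adjusted p in that set was 0.218, with 0.0346% of genes called below 0 and 0.173% above. With the 6-week dye reversal turned, the 1-week p was 0.0137 by limma, beside 0.605% of genes called below 0 and 0.743% above, and the mean was not called. In that set the 1-week call was lost without 1-week replicate 2 (limma adjusted p 0.0617) or replicate 3 (0.0803), and the call in the mean without the array against 6-week control (0.0699). That set of genes had been used on these data before, so the call is not independent of earlier results.

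Among all 11138 named genes, Ifi27l2a had the lowest mean over both times. It ranked 7 from the lowest at 1 week and 44 at 6 weeks, and 14 in the mean of the 4 arrays without dye reversal, at -1.29. With the sign of the 6-week dye reversal turned, its mean over both times was -0.92, rank 17. With both dye reversals turned it was -0.42, rank 517, and 0 members passed in any comparison. The difference of 0.61 ± 0.35 between 6 and 1 week had an unadjusted limma p of 0.139.

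The other effectors did not share this. Ifi203, the next lowest effector in the mean of both times (-0.38), had log2 ratios of -0.99, 0.29 and -0.13, then -0.18, -1.14 and -0.30. It was below 0 on 5 arrays and lowest on the 2 dye reversals, and its spots differed by at most 0.28. Isg15, a ubiquitin-like modifier and a common measure of type I interferon action, had log2 ratios of -0.41, 0.09 and 0.01 at 1 week and 0.12, -0.28 and 0.01 at 6 weeks. Usp18, which removes Isg15 from proteins and dampens the interferon receptor, had -0.03, 0.28 and 0.62, then 0.27, -0.59 and -0.12. Both genes crossed 0 at each time, and their 1-week means were -0.10 ± 0.17 and 0.29 ± 0.18 (SE, n = 3).

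The Ifit genes encode RNA-binding inhibitors of viral translation. Ifit1 had log2 ratios of -0.16, -0.60 and 0.11, then -0.13, -0.08 and 0.26. Ifit2 had 0.46, -0.49 and 0.03, then -0.56, -0.40 and -0.08. Ifit3 had -0.47, -0.65 and 0.04, then -0.52, -0.38 and -0.21, below 0 on every array but 1-week replicate 3. On 1-week replicate 2 its spots read -0.10 and -1.20, so it is outside the set with agreeing spots. Its mean over both times was -0.34 ± 0.15, with an unadjusted limma p of 0.071 and an adjusted p of 0.825. The dynamin-like antiviral GTPases were as mixed: Mx1 had -0.38, 0.56 and -0.37, then -0.03, 0.68 and 0.57, and Mx2 had -0.30, -0.18 and -0.08, then 0.10, -0.26 and -0.01. Probes of closely related family members may share signal, which holds for the Ifit, Gbp, Ifi200 and H2 genes alike.

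Guanylate-binding proteins, GTPases induced mainly by type II interferon that attack vacuoles of intracellular microbes, did not go 1 way. Gbp3 had log2 ratios of 0.94, 0.10 and 0.62, then 0.02, 0.31 and 0.10. Gbp8 had 0.97, 0.55 and 0.37, then 0.51, -0.06 and -0.15. Gbp2 had -0.14, -0.60 and -0.19, then 0.48, -0.57 and 0.01. At 1 week Gbp3 and Gbp8 were above 0 on all 3 arrays and Gbp2 below 0 on all 3. The 1-week means were 0.55 ± 0.21 for Gbp3 and 0.63 ± 0.19 for Gbp8, with unadjusted limma p of 0.0409 and 0.0189 and adjusted p of 0.739 and 0.677. With both dye reversals turned these means became -0.08 and -0.02, and without the 1-week dye reversal, the highest 1-week value of each, they were 0.36 and 0.46. Ifi47, an immunity-related GTPase, was above 0 on all arrays at 0.18, 0.14 and 0.52, then 0.35, 0.10 and 0.40, and its mean over both times of 0.29 ± 0.13 did not pass (limma adjusted p 0.824).

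**Figure D3:**
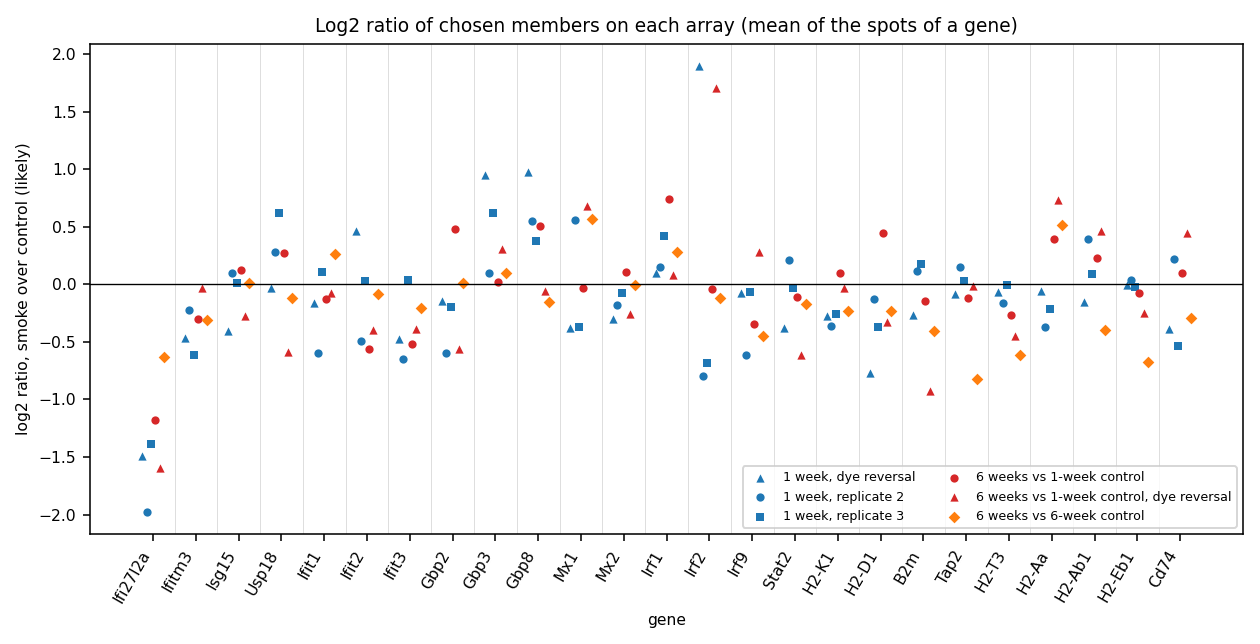
Log2 ratio of chosen members on each array, smoke over control (likely direction), every point being the mean of a gene's spots on 1 array. Blue marks 1 week, red 6 weeks against 1-week control and orange 6 weeks against 6-week control, with triangles for dye reversals; all 6 points of Ifi27l2a lie at -0.63 or below, while most other genes straddle 0 and Irf2 has both triangles above 1.70.

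Of the Ifitm genes, membrane proteins that block the fusion of viruses with endosomes, Ifitm3 was below 0 throughout. Its log2 ratios were -0.46, -0.23 and -0.61 at 1 week and -0.30, -0.03 and -0.31 at 6 weeks. The 1-week mean of -0.43 ± 0.16 had an unadjusted limma p of 0.0386 and an adjusted p of 0.739, and the mean over both times was -0.34 ± 0.13 (unadjusted p 0.0408). Ifitm2 was lower on some arrays and higher on others, at -0.51, -0.19 and 0.12, then 0.14, -0.37 and -0.24. Ifitm7 was above 0 at 1 week, at 0.20, 0.20 and 1.14, and below 0 at 6 weeks, at -0.01, -0.47 and -0.11.

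Of the transcription factors, Irf1, an activator that type II interferon induces, was above 0 on all 6 arrays, at 0.10, 0.15 and 0.42, then 0.74, 0.08 and 0.28. Its mean over both times was 0.28 ± 0.12, with an unadjusted limma p of 0.0657. Stat2 and Irf9, subunits of a factor that binds the ISRE, were on both sides of 0. Stat2 had -0.38, 0.21 and -0.03, then -0.11, -0.61 and -0.17, and Irf9 had -0.08, -0.62 and -0.06, then -0.34, 0.28 and -0.45.

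Irf2, a repressor that competes with Irf1 for the same sites, followed the dye. Its log2 ratios were 1.89, -0.79 and -0.68 at 1 week and -0.04, 1.71 and -0.12 at 6 weeks. Both dye reversals were above 0 and the other 4 arrays below 0, and its spots differed by at most 0.28. 3 members, with Isg15 and H2-K2, split their signs by dye on all 6 arrays, beside 6.46% of all named genes. Oasl2, an oligoadenylate synthetase-like antiviral protein, had 1.21, 0.04 and -0.53, then -0.03, 1.32 and -0.18, with both dye reversals above 1 and spots within 0.10. Dye-reversed minus other arrays, the mean difference was 2.21 for Irf2, rank 25 by size among 11138 named genes, and 1.44 for Oasl2, rank 159. In all, 3 members, Irf2, Oasl2 and Stat3, differed by over 1 between dye orientations (3.95%), beside 5.03% of all named genes. A dye effect with the signs as deposited and a smoke effect with both dye reversals turned cannot be told apart for these genes: so turned, Irf2 would have a mean over both times of -0.81 and Oasl2 of -0.50.

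**Figure D4:**
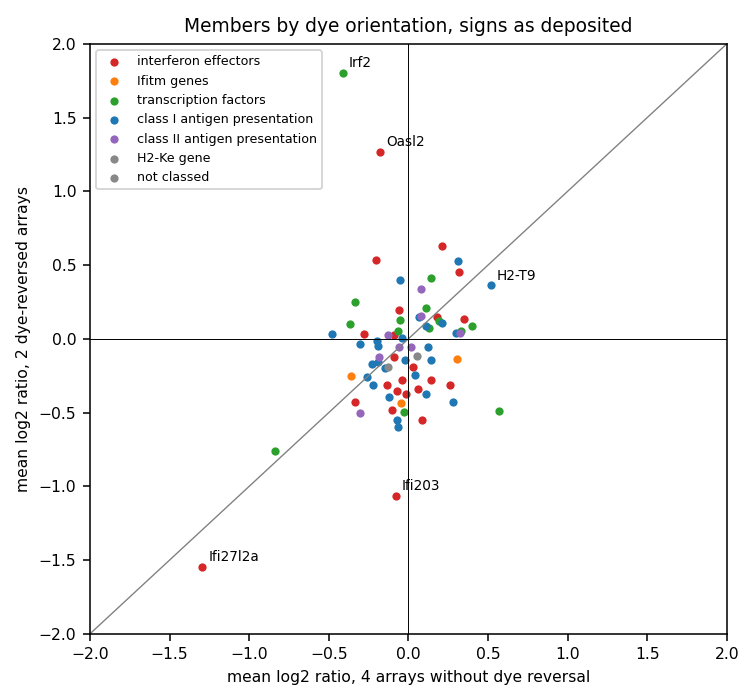
Mean log2 ratio of each member over the 2 dye-reversed arrays (vertical axis) against its mean over the other 4 arrays (horizontal axis), signs as deposited, coloured by class, with the line of equal values. Irf2 and Oasl2 lie at 1.80 and 1.27 on the vertical axis and near 0 or below on the other, and Ifi27l2a lies low on both, at -1.54 and -1.29.

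The 3 factors with the largest 1-week means rested on single spots. Irf7, the amplifier of the type I response, had a mean of -1.24 ± 0.51 at 1 week, with log2 ratios of -0.98, -0.01 and -2.72, then -0.39, -0.54 and -0.22. On 1-week replicate 3 its spots read 0.25 and -5.70, a gap of 5.95. Stat3, which carries signals of interleukin 6, had 2.35 on the same array from spots at 0.00 and 4.70, -0.03 and 0.00 on the other 1-week arrays, and 0.00, -0.96 and -0.07 at 6 weeks. Irf3, the factor that nucleic acid sensors activate, had 1.02, -0.34 and 0.93 at 1 week, then -0.07, -0.19 and 0.06, with spots up to 2.54 apart. Repeat spots of the same probe differed by at least 1 log2 unit on some array for 9 of the 14 transcription factors. So did those of 11 of the 26 class I genes, but of 4 of the 23 effectors. With 2 of class II these are the 26 members left out of the set with agreeing spots. Gaps between different probes were not counted, so H2-D1 and H2-T22 stayed in that set. On the array against 6-week control the probes of H2-D1 read -0.81 and 0.35, and those of H2-T22 read -0.46, 0.19 and -1.01.

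Class I genes had a median log2 ratio of -0.05 at 1 week and -0.09 at 6 weeks. H2-K1, a classical class I heavy chain, had -0.28, -0.36 and -0.26, then 0.10, -0.04 and -0.23, and H2-D1, another classical chain, had -0.77, -0.13 and -0.37, then 0.45, -0.32 and -0.23. At 1 week both were below 0 on every array, with means of -0.30 ± 0.15 and -0.42 ± 0.19 and unadjusted limma p of 0.0996 and 0.0711. The 2 probes of H2-K1 read 0.06 and -0.61 on the 1-week dye reversal. Its spots were up to 1.67 apart, so it is outside the set with agreeing spots. With both dye reversals turned, the 1-week mean of H2-D1 was 0.09 and that of H2-K1 was -0.11.

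B2m, the light chain that all class I molecules share, had -0.27, 0.12 and 0.17, then -0.14, -0.93 and -0.41, below 0 on the 6-week arrays and to both sides at 1 week. Tap1, a subunit of the peptide transporter, had -0.46, 0.68 and -0.40, then 0.29, 0.64 and -0.13, with repeat spots of 1 probe up to 2.59 apart. Its 2 probes read -0.56 and 1.91 on 1-week replicate 2, and -0.66 and 1.24 on the unreversed 6-week array against 1-week control. Tap2, its partner, had -0.08, 0.15 and 0.03, then -0.12, -0.01 and -0.82. H2-K1, H2-D1, B2m, Tap1 and Tap2, as means of their spots, were below 0 on the 1-week dye reversal. So they were on the array against 6-week control, and they had mixed signs on the other 4 arrays. Of the 26 class I genes, 8 were above 0 on the 1-week dye reversal and 8 on the array against 6-week control. On the latter the 2 probes of H2-D1 read -0.81 and 0.35, and 1 spot of H2-K1 read 0.62.

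Of the non-classical class I genes, H2-T9 was above 0 on all arrays, at 0.52, 0.46 and 1.40, then 0.01, 0.21 and 0.21, with a 1-week mean of 0.79 ± 0.23 (limma p 0.0174 unadjusted and 0.676 adjusted). Its spots on 1-week replicate 3 read 0.72 and 2.07. H2-T3 was below 0 on all arrays, at -0.07, -0.17 and -0.01, then -0.26, -0.45 and -0.62, and its 6-week mean of -0.49 ± 0.19 had an unadjusted limma p of 0.0438. H2-M9 had 0.57, 0.36 and -0.03, then 0.21, 0.48 and 0.71, a mean over both times of 0.41 ± 0.15 (unadjusted limma p 0.0368, adjusted 0.762). H2-Q1, as the mean of 2 probes, was below 0 on all arrays by 0.35 at most. Neither probe was below 0 throughout: 1 was at 0.18 on 1-week replicate 2, and the other at 0.09 on the array against 6-week control.

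Class II genes had a median of -0.04 at 1 week and 0.00 at 6 weeks. H2-Aa, which encodes the alpha chain of the class II molecule A, went from below 0 on every 1-week array, at -0.06, -0.37 and -0.21, to above 0 on every 6-week array, at 0.39, 0.73 and 0.52. The times did not overlap, and its spots differed by at most 0.27. With Ifitm7 it was 1 of 2 members whose signs parted by time on all 6 arrays, beside 2.76% of all named genes. The 6-week mean was 0.54 ± 0.19 and the difference between the times 0.75 ± 0.24, with unadjusted limma p of 0.0314 and 0.0236 and adjusted p of 1.0 and 0.951. It was the only member with an unadjusted p under 0.05 for the difference, beside 1.72% of all tests above 0 and 1.83% below. Such members numbered 2 without 1-week replicate 2 or the array against 6-week control, and 3 when the unreversed 6-week array against 1-week control was left out.

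The other class II genes had values on both sides of 0. H2-Ab1, the beta chain of the same molecule, had -0.16, 0.40 and 0.08, then 0.23, 0.46 and -0.40. H2-Eb1, the beta chain of the class II molecule E, had -0.01, 0.04 and -0.03, then -0.07, -0.25 and -0.67. Cd74, the invariant chain, had -0.39, 0.22 and -0.53, then 0.10, 0.45 and -0.29. Its spots read 0.08 and -1.15 on 1-week replicate 3, so it is outside the set with agreeing spots. On the array against 6-week control they read 0.10 and -0.69. Against 6-week control, H2-Aa was at 0.52, and H2-DMb1, H2-Ea and H2-Oa were also above 0 at 0.70, 0.44 and 0.19, while H2-Ab1, H2-Eb1, Cd74 and H2-DMa lay between -0.67 and -0.28. H2-DMb1, a chain of the molecule that loads peptides onto class II, differed more between the times than H2-Aa, by 0.96 ± 0.57, with spots up to 2.83 apart and an unadjusted limma p of 0.149. With the 6-week dye reversal turned, the 6-week mean of H2-Aa was 0.17 and its difference between the times 0.39.

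**Figure D5:**
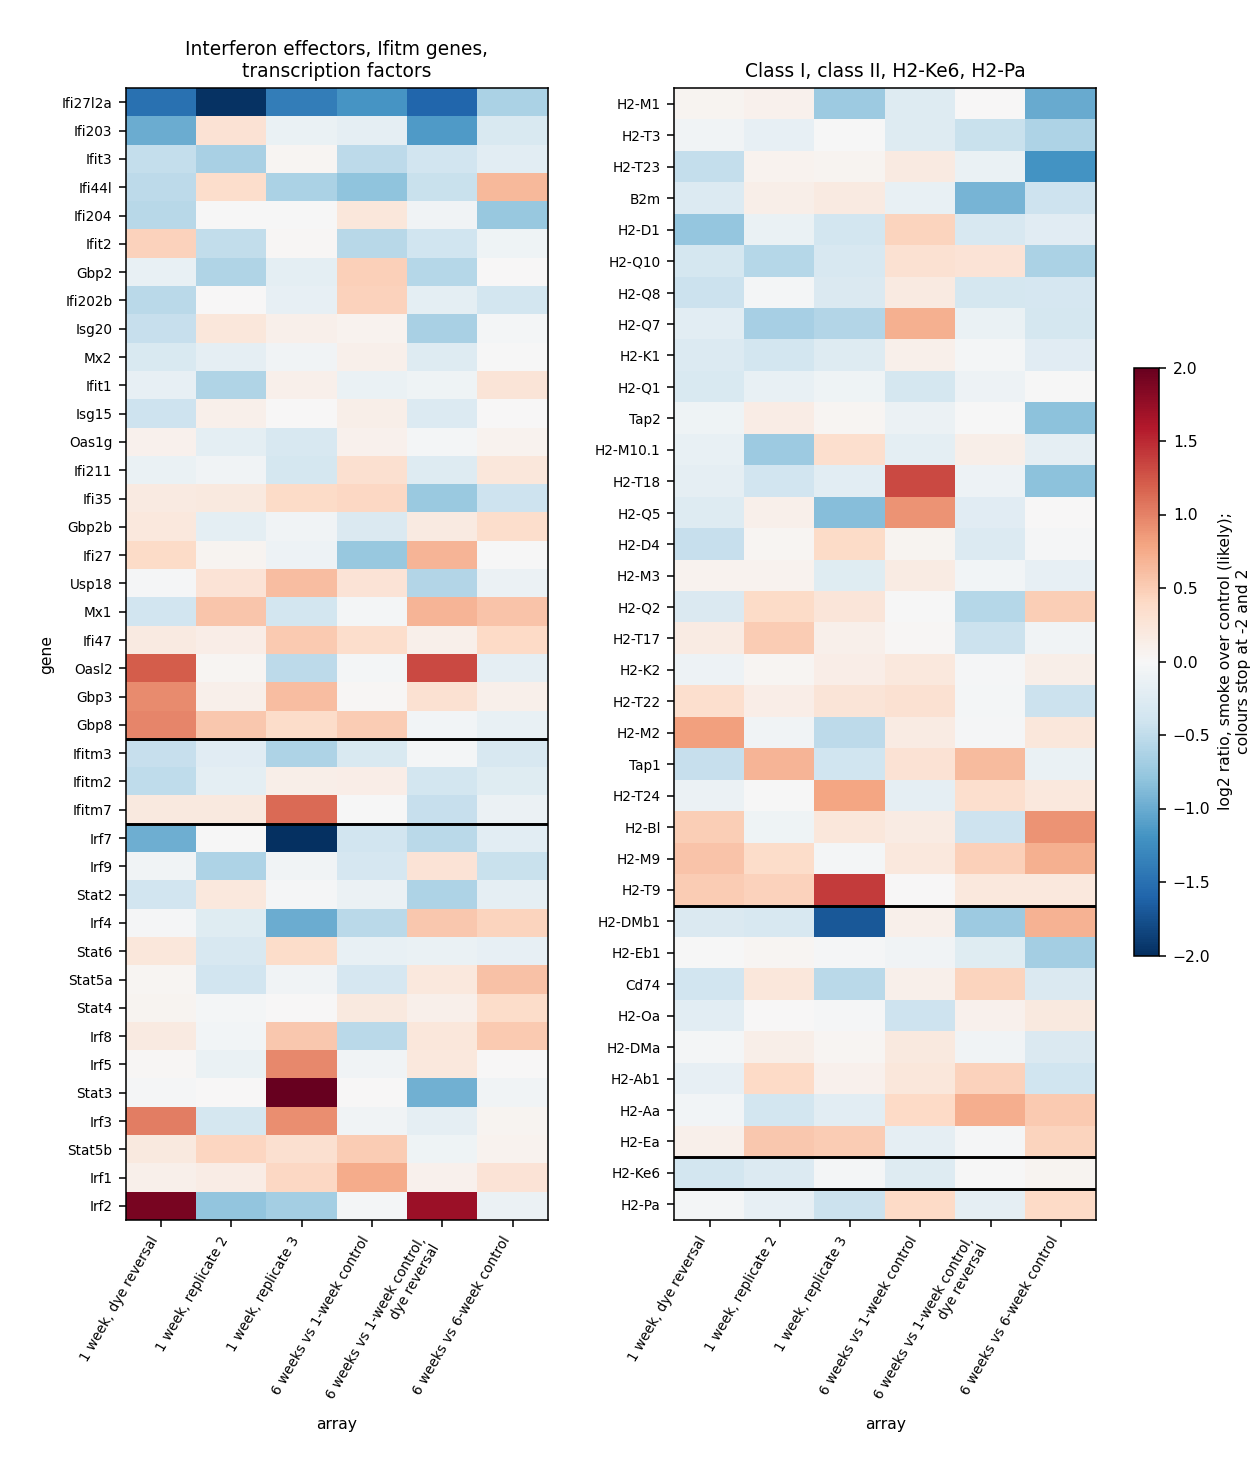
Log2 ratio of all 76 members on the 6 arrays, smoke over control (likely direction), with red above 0 and blue below; colours stop at -2 and 2, and black lines part the classes, within which genes are ordered by their mean. Ifi27l2a is blue in all columns, Irf2 and Oasl2 are red in both dye-reversal columns, and no class of 8 or more genes has 1 sign throughout on any array.

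The values of members with and without the ISRE core in a promoter window overlapped. The 17 members with it had a median of -0.12 at 1 week and -0.07 over both times, and the 37 with windows that lack it had -0.05 and -0.03. With the core, values over both times ran from -0.38 to 0.34, and without it from -0.79 to 0.41. Ifi27l2a is in neither group.

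Pathway genes outside the choice by symbol were counted from lists chosen with earlier results of these data known. Measured were 8 genes of receptors and signalling, 8 nucleic acid sensors, 23 other induced genes and 9 of peptide loading and class II handling. In the mean of both times 0 of them passed limma's adjusted p over all features, beside 0% of all tests. In the set with agreeing spots, which held 32 of these 48 genes, 1 passed, beside 0.76% of genes called below 0 and 1.23% above: Ly6e, an interferon-induced surface protein that modulates virus entry, at -0.59, -0.44 and -0.94, then -0.47, -0.96 and -0.68. Its mean over both times was -0.68 ± 0.12 in that set (limma adjusted p 0.0351, and 0.521 over all features), and all 6 arrays were below 0, as they were for Ifi27l2a and Ifitm3. The call was lost with the 6-week dye reversal turned (-0.44, limma adjusted p 0.357) or both turned (-0.24, 0.834). It was also lost without 1-week replicate 2 (0.0573) or replicate 3 (0.12), the 6-week dye reversal (0.0658) or the array against 6-week control (0.304).

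At an unadjusted limma p under 0.05 the lists gave further genes of both signs, none of which passed the adjusted threshold over all features. At that unadjusted p, 3.53% of all tests were above 0 and 3.12% below at 1 week, and 2.18% and 1.94% at 6 weeks. The shares were 1.72% and 1.83% in the difference between the times, and 3.2% and 3.12% in the mean. Eif2ak2, the kinase that stops translation on double-stranded RNA, and Cmpk2, a mitochondrial nucleotide kinase, were above 0 at 1 week (0.51 ± 0.18 and 0.40 ± 0.15). The spots of Eif2ak2 were up to 3.67 apart, which leaves it outside the set with agreeing spots. Lgals3bp, a secreted glycoprotein, was below 0 at 1 week (-0.43 ± 0.15). Socs3, an inhibitor of JAK kinases, was at 0.50 ± 0.19 at 6 weeks and 0.66 ± 0.25 higher there than at 1 week. Tgtp1, an immunity-related GTPase, was 0.69 lower at 6 weeks than at 1 week on the log2 scale, with log2 ratios of 0.11, 0.44 and 0.14, then -0.32, -0.62 and -0.44. Ifih1, a sensor of viral RNA, was above 0 on all arrays with a mean over both times of 0.42 ± 0.15.

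Markers of cell types were read beside these values, as ratios only, so whether a marker was present could not be checked. Of 17 measured leukocyte markers, whose cells can carry class II and interferon genes, the list's median lay between -0.10 and 0.03 on the 6 arrays. In the mean of both times 1 of them had an unadjusted limma p under 0.05, Lyz2 (-0.58 ± 0.13, spots up to 1.62 apart), beside 3.12% of all tests below 0 and 3.2% above. Of 11 endothelial markers, 4 were below 0 in the mean of both times at an unadjusted limma p under 0.05 and 1 above, beside the same shares of all tests. Below were Cldn5 (-0.79), Eng (-0.49), Egfl7 (-0.47) and Emcn (-0.35), and above was Tek (0.38 ± 0.12). In the set with agreeing spots Cldn5 was at -0.79 ± 0.13 (limma adjusted p 0.0221, and 0.474 over all features). That call was lost with either turning of dye reversals (-0.38 and -0.16), without 1-week replicate 2 (limma adjusted p 0.0605) or 3 (0.0736), and without the array against 6-week control (0.137). The list's median lay between -0.48 and 0.01 across the arrays, with the lowest value on the 6-week dye reversal. Of 6 fibroblast markers, 2 had an unadjusted limma p under 0.05 in the mean of both times, both below 0: Dpt (-0.93) and Dcn (-0.34). At 1 week, where the list's median was -0.52, 3 were below 0 at that unadjusted p, beside 3.12% of all tests. These were Dpt (-1.33), Dcn (-0.54) and Pdgfra (-0.49). The list's median lay between -0.72 and 0.00 on the arrays, and Lum was above 0 at both times, Col1a1 at 1 week (0.32) and Pdgfra at 6 weeks (0.34). Dpt was at -1.20, -1.13 and -1.66 at 1 week and -0.86, -0.96 and -0.15 at 6 weeks, nearest to 0 on the array against 6-week control, as Ifi27l2a was. In the set with agreeing spots its mean passed (limma adjusted p 0.0235), but not without 1-week replicate 3 (0.102), without the array against 6-week control (0.112) or with either turning (0.155 and 0.877). Dpt also passed at 1 week in that set (limma adjusted p 0.0189), beside 0.778% of genes called below 0 and 0.985% above. With both dye reversals turned its 1-week mean was -0.53, and 0% of that set was called. Of 3 adipocyte markers, whose medians lay between -0.18 and 0.22 on the arrays, Fabp4 was at -0.66 ± 0.22 at 6 weeks. Of 2 red cell markers, with medians between -0.58 and 0.69, Alas2 was at 0.95 ± 0.31 at 1 week and 1.48 lower at 6 weeks on the log2 scale (unadjusted limma p 0.0271). The part of these markers in the values of Ifi27l2a and H2-Aa was not tested.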

How the data were processed

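The deposited values are log2 ratios of 32448 features per array. How the authors made these log2 values, that is, the scanner, background correction, normalization, filter and dye of each channel, is not given in the sources used here. The log base was checked on the values: taken as log2, they are folds in whole hundredths, within 0.02 of a hundredth, for at least 99.9877% of the values on each array.

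A probe table named 24344 features by 1 symbol. 98 had several and 8006 were absent from it; these were tested unnamed. The members' symbols were the same in RefSeq (GRCm38.p6) for 71 of 76. Arrays were centred on their median, and 180 spots were averaged into 76 members.

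A model with 1 coefficient for each time was fitted to the 5 replicates in limma 3.58.1 (lmFit, eBayes; R 4.3.3), 3 residual degrees of freedom, two-sided tests and Benjamini-Hochberg adjustment over 19242 tests, threshold 0.05. The code was tested on simulated data. Members, classes and lists were chosen with earlier results of these data known. Values on every array are given for measured core members fixed by name (among them Isg15, Mx1, B2m and Cd74), for members with an unadjusted p under 0.05 and 1 sign on every array, and for members that passed. Ifi203, Oasl2, Irf2, Ifi47, Ifitm2 and Ifitm7 fall outside this rule and were named after their values were seen. The same holds for H2-M9, H2-Q1, H2-K2, H2-T22, H2-DMa, H2-DMb1, H2-Ea, H2-Oa and the cell type markers. Alternatives changed signs of dye reversals, arrays, spot filter, scale, normalization, dye term and variance model.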

Additional observations from a re-analysis of the deposited data

Results flagged for a closer look

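Members whose arrays of 1 kind were all above 0 and of the other kind all below are listed here. None of these splits was tested beyond the fit given in the report, and no sample group has the 4 arrays that a check for outlying arrays needs. Between exposure times, 2 members split, beside 2.76% of all named genes. H2-Aa was 0.75 higher at 6 weeks than at 1 week on the log2 scale. Ifitm7 differed by -0.69, with all 1-week arrays above 0 and all 6-week arrays below. Between dye-reversed and other arrays, 3 members split, beside 6.46% of all named genes. Irf2 was 2.21 higher on the dye-reversed arrays. Isg15 differed by -0.40, with dye-reversed arrays at -0.41 and -0.28 and the other 4 between 0.01 and 0.12. H2-K2, a class I gene, differed by -0.18.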

How the results depend on the processing

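Over 30 alternatives, members that passed the adjusted threshold numbered 0 at 6 weeks and in the difference between the times. At 1 week 1 member, Ifi27l2a, passed with agreeing spots alone, with the 6-week dye reversal turned as well, or over the 4 arrays without dye reversal; in the mean of both times 1 passed with agreeing spots, alone or over those 4 arrays. Leaving out 1 array gave 0 to 1 at 1 week and in the mean, and 0 in the others. The fits that combine agreeing spots with another change were added after seeing the data.

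The median over all members lies so close to 0 that its sign moved. At 1 week it was 0.01413 with both dye reversals turned, 0.01583 so turned with agreeing spots, and -0.00201 with agreeing spots over the 4 arrays; leaving out 1 array gave -0.06659 to -0.00201. At 6 weeks it was 0.03634 with the 6-week or both dye reversals turned and 0.04599 when agreeing spots were also required; leaving out 1 array gave -0.1414 to -0.009599. For the difference it was -0.04951 with both turned, -0.05671 so turned with agreeing spots and -0.05985 with agreeing spots over the 4 arrays; leaving out 1 array gave -0.05686 to 0.0996. In the mean it was 0.009852 with both turned and agreeing spots, and -0.0774 to -0.01627 with 1 array left out. The cause of these moves was not tested. Depth of signal was not assessed. No paired analysis was possible because the labels give no replicate numbers that groups share.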
